A study of Sus scrofa with 8 samples.

Results

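The genes described here are the germline pieces of the antigen receptors: every row of the gene table annotated as a V segment, a C region, a D segment or a J segment. The annotation gave 137 such genes among 30550, of which 121 were V segments and 16 were C regions. No row was annotated as a D or a J segment. Genes without a single sequenced fragment were counted too.

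B cells and T cells recognise antigen with receptors whose genes are assembled in each developing lymphocyte. One V (variable) segment is joined to J, and for some chains D, segments, and the joined exon is spliced to a C (constant) region. The V segment forms most of the antigen-binding domain, and the C region sets the class of the chain. Immunoglobulin heavy chains pair with kappa or lambda light chains, and T cell receptors pair alpha with beta or gamma with delta chains. An unjoined V segment is generally transcribed little, and joined V segments are carried by lymphocytes and plasma cells. Whether the V segment RNA measured here came from joined or unjoined segments, and from which cells, was not tested.

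RNA-seq was done on right ventricular tissue of pigs carrying 1 disrupted copy of PKP2 (PKP2+/-, PKP2_het, 4 libraries) and of wild-type pigs (WT, 4 libraries). PKP2 encodes plakophilin-2, a desmosomal protein of the cardiomyocyte junction, and its loss on 1 allele is a known cause of arrhythmogenic cardiomyopathy in humans. The sources used here do not give the age, sex, breed or kinship of the animals, or how the allele was made. The libraries are numbered within each group, and nothing says that they came from separate animals, so the p-values measure only the spread between these libraries.

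The libraries held between 23637697 and 31313628 fragments assigned to genes. PKP2 itself stood at 45.4, 40.7, 24.6 and 45.9 FPKM (fragments scaled by gene length and by the size of the library) in the PKP2_het libraries, against 52.9, 62.2, 61.1 and 72.8 FPKM in the WT libraries. Its mean was 62.9% of the WT mean, with no overlap between the groups (two-sided exact permutation p = 0.0286, the smallest that 4 against 4 libraries allow). The labels call the material cardiomyocytes, while the protocol names ventricular tissue. The 10 cardiomyocyte markers summed to between 24575 and 33911 FPKM in PKP2_het and between 25723 and 29015 FPKM in WT, and 13 macrophage markers to between 25.1 and 68.7 FPKM in PKP2_het and between 47.9 and 63.4 FPKM in WT. The RNA thus held transcripts of several cell types, and in bulk RNA fewer cells of a type and less RNA per cell cannot be told apart.

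Receptor segments were rare in this RNA. Of the 137 genes, 51 had any fragment in the 8 libraries, 37 of 121 V segments and 14 of 16 C regions. Only 19 had 10 or more fragments in all, and 3 reached 1 FPKM in at least 4 libraries, the level required for the test. Those 3 were all kappa V segments. The V segments without a fragment numbered 39 of 51 for T cell receptor alpha and delta, 8 of 16 for T cell receptor beta, 14 of 17 for the heavy chain, 22 of 33 for kappa and 1 of 4 for lambda.

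The largest difference among the members, on the log2 scale, was at a pair of neighbouring kappa V segments, LOC110258689 and LOC110258687, which were abundant in every WT library and nearly or fully absent from every PKP2_het library. LOC110258689 is a V segment with an immunoglobulin V-set domain whose closest human protein is the product of IGKV1-39. It lies on an unplaced scaffold of the pig assembly Sscrofa11.1, at NW_018085169.1:56966-57705 on the minus strand. LOC110258687, closest to human IGKV2-28, spans NW_018085169.1:8540-64914 on the same strand and so contains LOC110258689 within its limits. Its RefSeq model includes 582 bases that are not in the assembly.

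LOC110258689 was measured at 0.582, 0.0619, 0 and 0 FPKM in the PKP2_het libraries, against 15.1, 20.8, 29.3 and 17.7 FPKM in the WT libraries. The lowest WT library stood far above the highest PKP2_het library, and 2 PKP2_het libraries had no fragment at all. The fragments behind these levels were 9, 1, 0 and 0 in PKP2_het against 180, 348, 519 and 291 in WT. The mean was 0.161 ± 0.282 FPKM in PKP2_het against 20.7 ± 6.17 FPKM in WT (SD, n = 4 each), a ratio of means 129-fold lower in PKP2_het. PKP2_het library 1 held 9 of the 10 PKP2_het fragments, and without it 1 fragment remained and the ratio was 1004-fold lower (95% exact Poisson interval 180 to 39638, counting error of that fragment only). On the log2(FPKM + 1) scale, which understates changes of low genes, the difference was -4.21 ± 0.21 (SE), with a limma adjusted p of 1.23e-05.

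LOC110258687 had no fragment in any of the 4 PKP2_het libraries, against 3.02, 3.80, 5.97 and 3.26 FPKM in WT, from 29, 51, 85 and 43 fragments. It was thus at least 64.0-fold lower in PKP2_het, taking 3 fragments over the whole group as the limit that a count of 0 allows. Its log2 difference was -2.29 ± 0.16 (SE), with a limma adjusted p of 0.000112. The 2 genes kept a nearly fixed proportion in WT: LOC110258687 was between 0.183 and 0.204 of LOC110258689 in all 4 libraries. They overlap on the same strand, so the way fragments were divided between them is uncertain and they are not independent measurements.

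These 2 were the only members called lower by limma, and no member was called higher. Among all 10757 genes tested by limma, 0.707% were called lower and 1.15% higher. The third tested member, described below, was not called. Both called segments passed the level required for the test only through the WT libraries, so the share of called members among those tested carries no weight. Testing every gene with any fragment gave the same picture for 51 members: 2 were lower and 0 higher by limma, against 0.441% and 0.657% of 22206 genes.

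**Figure D1:**
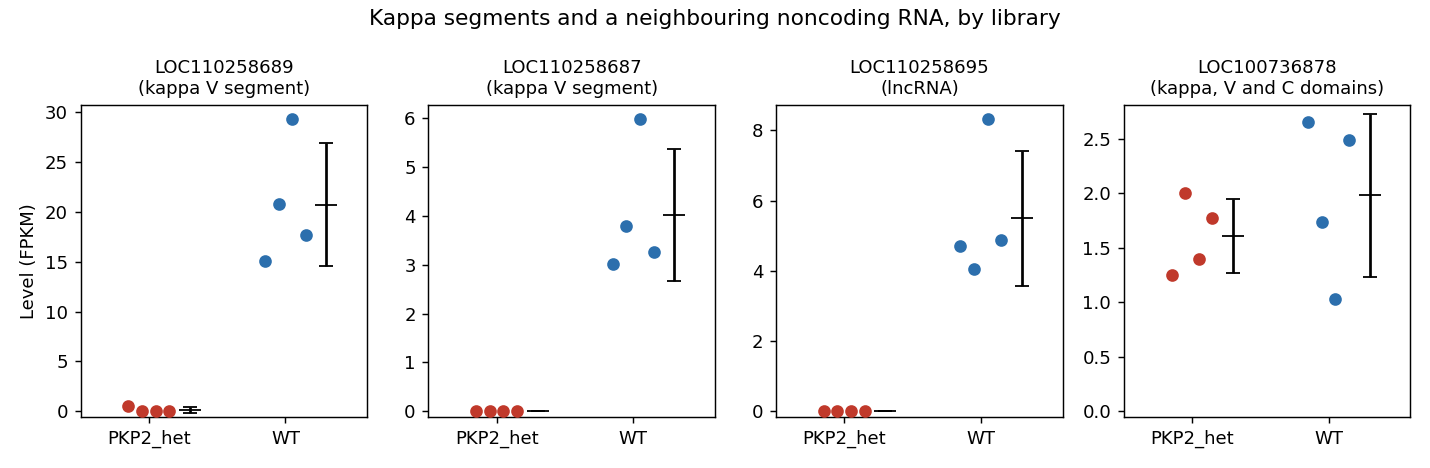
Level in FPKM (vertical axes, a separate linear scale in each panel) of 2 kappa V segments, the noncoding RNA LOC110258695 of the same scaffold and the kappa gene LOC100736878 on chromosome 3. Points are libraries, 4 of PKP2_het (red) and 4 of WT (blue), and bars are the mean ± SD. The first 3 genes lie at or near 0 in all PKP2_het libraries, whereas the groups overlap for LOC100736878.

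The difference was not limited to annotated V segments. The noncoding RNA LOC110258695, which lies at NW_018085169.1:72602-74327 beside the pair, had 0 FPKM in every PKP2_het library, against 4.72, 4.06, 8.31 and 4.88 FPKM in WT. It was at least 170-fold lower in PKP2_het by the same limit, with a log2 difference of -2.66 ± 0.17 (SE) and a limma adjusted p of 6.60e-05. Like the pair, it passed the level required for the test only through the WT libraries. Its level was between 0.195 and 0.313 of that of LOC110258689 in WT.

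The scaffold carries 22 genes, 13 of them V segments, all with a kappa V gene as closest match where one is given. Only 9 had any fragment. In all, fragments on the scaffold numbered 19, 2, 3 and 0 in the PKP2_het libraries, against 304, 523, 1136 and 478 in the WT libraries. Transcripts of the scaffold were not fully absent from PKP2_het, since 6 genes had at least 1 fragment there, 19 of the 24 fragments coming from PKP2_het library 1.

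A second group of scaffold genes, near its other end, was highest in a single WT library. LOC110258705, a V segment closest to human IGKV1-39, stood at 0.272, 0, 0 and 0 FPKM in PKP2_het and at 0, 0, 1.84 and 0.128 FPKM in WT. The neighbouring noncoding RNA LOC110258697 had 0.0389, 0, 0 and 0 FPKM in PKP2_het, against 0.101, 0.180, 2.34 and 0.330 FPKM in WT. An unnamed gene between them had 0 FPKM in every PKP2_het library, against 0.0246, 0.0528, 1.57 and 0.0269 FPKM in WT. For LOC110258697 and the unnamed gene every WT library stood above every PKP2_het library. All of these genes were highest in WT library 3, the WT library in which the abundant pair was also highest, and none was called by limma.

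**Figure D2:**
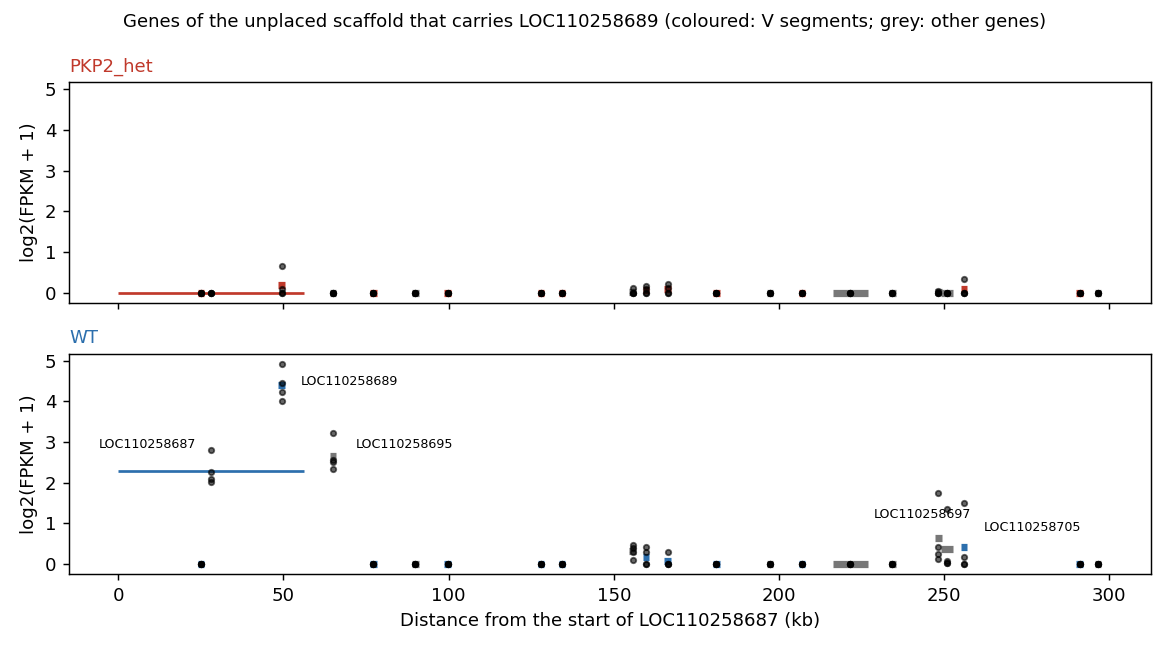
Levels of the 22 genes of the unplaced kappa scaffold as log2(FPKM + 1) (vertical axes) against distance from the start of LOC110258687 in kb (horizontal axis), with PKP2_het above and WT below. Points are libraries, horizontal bars span each gene at its group mean, colour marks V segments and grey other genes. The 3 genes near the start are high in all 4 WT libraries, and those near its other end in WT library 3.

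Across the whole gene table, 2 genes had 0 FPKM in every PKP2_het library and at least 1 FPKM in every WT library, and both were on this scaffold (LOC110258687 and LOC110258695). The converse, 0 in every WT library and at least 1 FPKM in every PKP2_het library, was met by 1 gene, on a chromosome. This level was chosen after the values had been seen. Of 166 genes tested on unplaced scaffolds 9.04% were called, 9 higher and 6 lower, beside 1.75% of 10591 on chromosomes, a difference that was not tested.

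The third kappa gene that could be tested did not pass the threshold. LOC100736878, on chromosome 3 at 57214388-57321338 (plus strand), is annotated as a V segment, but its product carries a V-set and a C1-set domain and matches a whole kappa light chain. Fragments of the constant part can be counted there whatever V segment a chain uses. It stood at 1.25, 2.0, 1.40 and 1.77 FPKM in PKP2_het, against 2.66, 1.74, 1.03 and 2.49 FPKM in WT. The groups overlapped, with means of 1.61 ± 0.34 FPKM in PKP2_het against 1.98 ± 0.75 FPKM in WT (SD, n = 4 each). The log2 difference was -0.17 ± 0.19 (SE), with a limma adjusted p of 0.737. The other 5 V segments of its locus on chromosome 3 had no fragment.

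Set against this kappa gene within each library, LOC110258689 was 0.464, 0.0310, 0 and 0 times its level in PKP2_het, against 5.67, 12, 28.4 and 7.11 times in WT. LOC100736878 varied only between 1.03 and 2.66 FPKM over all libraries. The ratio was therefore bound to separate the groups as the level of LOC110258689 did, and it adds no evidence of its own. WT library 3 had the highest LOC110258689 and the lowest LOC100736878 of the WT libraries.

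Apart from these 3, kappa V segments were near the limit of detection. Their 30 remaining genes gave 8, 1, 3 and 4 fragments in PKP2_het, against 1, 7, 44 and 2 in WT, where WT library 3 again supplied most. An example outside the scaffold above is LOC110258329, closest to IGKV2-28, with 4 fragments in PKP2_het, all in library 4, and 0 in WT.

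Summed over all 33 kappa V segments, the level was 2.01 ± 0.33 FPKM in PKP2_het against 27.5 ± 7.88 FPKM in WT (SD, n = 4 each), or 7.31% of WT. Over all 121 V segments it was 2.54 ± 0.35 FPKM in PKP2_het against 28.0 ± 7.90 FPKM in WT, or 9.06%. Nearly all of that gap came from the pair: without LOC110258689 and LOC110258687 the sums were 1.98, 2.82, 2.05 and 2.66 FPKM in PKP2_het, against 3.22, 2.73, 4.01 and 3.12 FPKM in WT, or 72.7%. These remaining sums overlapped between the groups, by PKP2_het library 2 and WT library 2. Without LOC100736878 as well, the 118 remaining V segments held 16, 17, 13 and 18 fragments in PKP2_het, against 9, 23, 58 and 18 in WT.

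The V segments of the other chains gave few fragments. Heavy-chain V segments had 0 fragments in PKP2_het, against 3, 1, 0 and 0 in WT. Lambda V segments had 1, 7, 2 and 4 fragments in PKP2_het, against 2, 4, 6 and 4 in WT. The highest of them, LOC102167597 on chromosome 14, closest to human IGLV8-61, stood at 0, 0.497, 0.175 and 0.308 FPKM in PKP2_het, against 0.0959, 0.206, 0.388 and 0.140 FPKM in WT. T cell receptor alpha and delta V segments had 5, 5, 0 and 8 fragments in PKP2_het, against 2, 6, 7 and 10 in WT. T cell receptor beta V segments had 2, 4, 8 and 2 fragments in PKP2_het, against 1, 5, 1 and 2 in WT. In FPKM the beta V segments summed to 0.0937, 0.123, 0.324 and 0.0804 in PKP2_het, against 0.0498, 0.0883, 0.0189 and 0.0604 in WT, 286% of WT with overlap. The groups overlapped for the lambda, alpha and delta, and beta chains, and these sums were not tested.

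The C regions, which every chain of a class shares whatever its V segment, gave no called difference. They numbered 9 for the heavy chain, 2 for lambda, 1 for T cell receptor beta and 4 for gamma. None was annotated for kappa, so these values do not cover the chain of the called pair. LOC102158332, LOC110255503, LOC102158411 and LOC102158125 also carry a V-set domain, so fragments of a V part can be counted there. None of the 16 reached the level required for the main test. With no level required, 14 were tested by limma, 0 were called, 3 had an unadjusted p under 0.05, and 9 were lower and 5 higher by sign. Restricting to genes with at least 10 fragments in all, limma voom on fragments tested 12 C regions and again called 0, with 3 at an unadjusted p under 0.05. Of all 18427 genes tested that way 1.06% were called higher and 0.624% lower.

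The heavy-chain C regions lie on the unplaced scaffold NW_018084979.1 between 3580107 and 3774450. The gene with most fragments, LOC102165485, closest to the human immunoglobulin alpha-2 heavy chain (IgA, the mucosal class), was measured at 0.0752, 0.588, 0.385 and 0.0780 FPKM in PKP2_het, against 1.59, 0.939, 0.798 and 3.91 FPKM in WT. Every WT library stood above every PKP2_het library, with 87 fragments in PKP2_het and 583 in WT. The mean was 0.282 ± 0.251 FPKM in PKP2_het against 1.81 ± 1.44 FPKM in WT (SD, n = 4 each), 15.6% of WT. The difference did not pass the threshold, with a limma adjusted p of 0.238 on log2(FPKM + 1) and 0.124 by limma voom. The limits of LOC102165485 enclose the other 8 heavy-chain C regions, so the division of fragments among them is uncertain.

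Gamma C regions, the constant parts of IgG, differed in direction by value. LOC110258346, closest to human IGHG4, stood at 0.145, 5.38, 0.825 and 1.36 FPKM in PKP2_het, against 0, 0.565, 0.381 and 1.34 FPKM in WT. PKP2_het library 2 gave 193 of its 267 fragments in that group. LOC110258347, closest to IGHG2, had 0, 0.111, 0 and 0.0302 FPKM in PKP2_het, against 0.527, 0.377, 0.0254 and 0.0822 FPKM in WT. The groups overlapped for both, with limma adjusted p of 0.684 and 0.485. LOC110258349, closest to mouse Ig gamma-3, had 3, 3, 0 and 4 fragments in PKP2_het, against 3, 3, 0 and 41 in WT. LOC110255225, closest to IGHG4, had 0, 1, 0 and 4 fragments in PKP2_het, against 20, 0, 1 and 0 in WT. A single WT library, a different one for each gene, thus held most of their fragments.

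LOC106508719, closest to the delta heavy chain (IgD, carried by naive B cells), stood at 0.0533, 0.102, 0.0420 and 0.0184 FPKM in PKP2_het, against 0.0689, 0.263, 0.202 and 0.10 FPKM in WT. The groups overlapped slightly, and the limma adjusted p was 0.389. LOC110258369 had a single fragment, in PKP2_het library 2, while LOC102163090 (the IgE constant region) and LOC110258348 had 0 in all libraries. Summed over 9 heavy-chain C regions, the level was 0.317, 6.27, 1.25 and 1.66 FPKM in PKP2_het, against 2.98, 2.18, 1.43 and 5.99 FPKM in WT, 75.5% of WT with wide overlap. That share was 34.2% without PKP2_het library 2, 108% without WT library 4 and 48.7% as shares of library fragments. Over all 16 C regions the sum was 78.6% of WT, 44.3% without PKP2_het library 2, 107% without WT library 4 and 52.8% as shares of library fragments, so neither its size nor its direction is fixed by these libraries.

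Lambda C regions were higher by value in PKP2_het, from very few fragments. LOC102158332, whose limits also span lambda V segments, stood at 0.216, 0.331, 0.204 and 0.0448 FPKM in PKP2_het, against 0.0558, 0.160, 0 and 0.163 FPKM in WT. The pair of lambda C regions together gave 5, 9, 7 and 1 fragments in PKP2_het, against 1, 5, 0 and 4 in WT. The second, LOC110256717, contributed 0, 0.0483, 0.179 and 0 FPKM in PKP2_het, against 0, 0.0466, 0 and 0 FPKM in WT.

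Among T cell receptor C regions, the beta chain differed most. LOC102167789, on chromosome 18 at 7431310-7474188 and closest to a T cell receptor beta chain, had 0.0666, 0.0638, 0.0394 and 0 FPKM in PKP2_het, against 0.172, 0.154, 0.145 and 0.408 FPKM in WT. Every WT library was above every PKP2_het library, but from only 5 fragments in PKP2_het and 27 in WT, and the limma adjusted p was 0.224. The beta V sum over this C region was 1.41, 1.93 and 8.24 in PKP2_het libraries 1, 2 and 3, with no value in library 4 for want of C fragments, against 0.289, 0.573, 0.130 and 0.148 in WT. These untested ratios did not overlap, and each rests on 1 to 13 C fragments. A nearby beta chain gene outside the V and C annotation, LOC100621559, averaged 0.0941 ± 0.069 FPKM in PKP2_het against 0.125 ± 0.108 FPKM in WT, with overlap.

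The 4 gamma C regions lie on chromosome 9 between 108678512 and 108784323 and together gave 0.341, 0.651, 0.776 and 0.282 FPKM in PKP2_het, against 0.147, 0.565, 0.893 and 0.708 FPKM in WT. The groups overlapped for each of the 4. LOC102158125 was the highest, with 0.115, 0.287, 0.354 and 0.0718 FPKM in PKP2_het, against 0.0596, 0.171, 0.483 and 0.348 FPKM in WT. LOC102158002 lay between 0.0656 and 0.137 FPKM in PKP2_het and between 0.0295 and 0.193 FPKM in WT. LOC102158411 lay between 0 and 0.213 FPKM in PKP2_het and between 0.0420 and 0.214 FPKM in WT, and LOC110255503 between 0.0664 and 0.235 FPKM in PKP2_het and between 0 and 0.125 FPKM in WT.

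**Figure D3:**
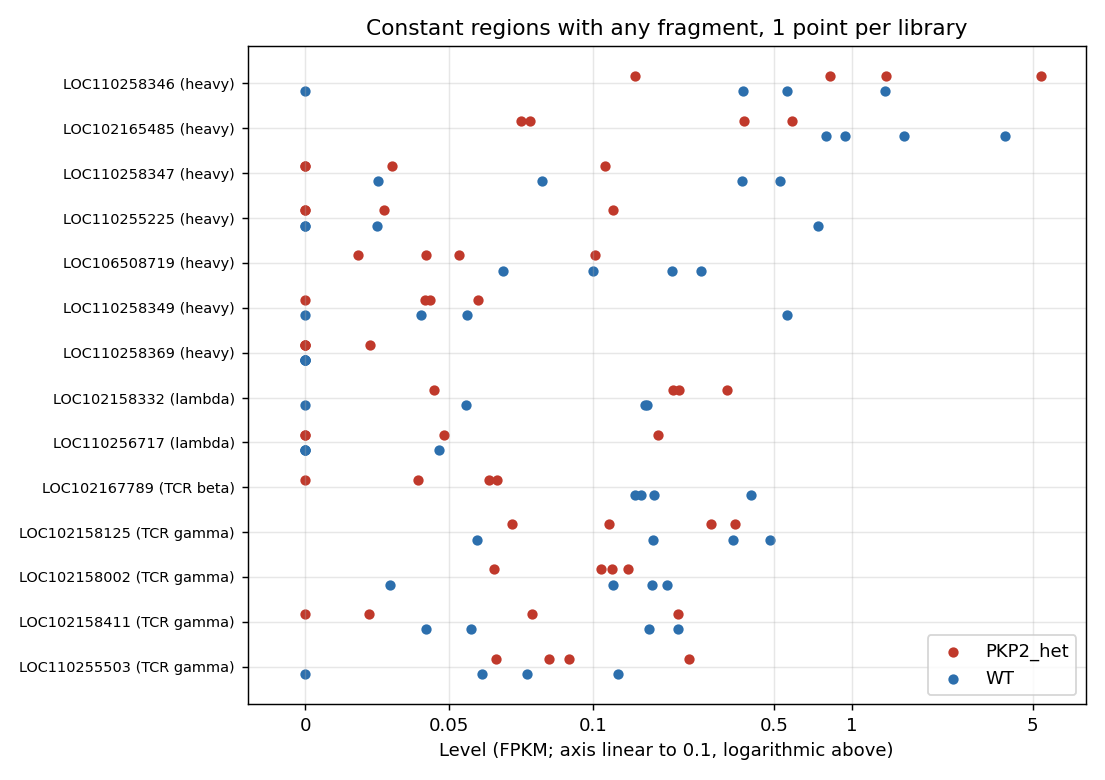
Level in FPKM of the 14 C regions with any fragment (horizontal axis, linear to 0.1 and logarithmic above), with PKP2_het above WT in each row. Points are libraries, 4 per group. For LOC102165485 and LOC102167789 all PKP2_het points lie below all WT points, and the groups overlap for the other 12.

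Of the 51 members with any fragment, 4 had all PKP2_het libraries below all WT libraries (the kappa pair, LOC102165485 and LOC102167789) and 0 had them all above. Among all 22206 genes with any fragment these shares were 3.48% below and 4.24% above. Among the 19 members with at least 10 fragments, 15 had a lower and 4 a higher value in PKP2_het by limma voom, and their median log2 difference was -0.64, beside -0.01 for all genes tested that way.

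The alpha chain and a second heavy-chain gene carry the protein-coding label and so were not among the 137. LOC102158035, a T cell receptor alpha chain gene on chromosome 7, stood at 1.10, 1.05, 1.40 and 0.592 FPKM in PKP2_het, against 1.31, 1.75, 1.80 and 2.36 FPKM in WT. PKP2_het library 3 overlapped WT library 1, and the limma adjusted p was 0.208. LOC396781, an IgG heavy-chain gene overlapping the C regions above, averaged 0.112 ± 0.092 FPKM in PKP2_het against 0.516 ± 0.450 FPKM in WT (SD, n = 4 each), with overlap. LOC102160313, the T cell receptor delta constant gene, averaged 0.142 ± 0.068 FPKM in PKP2_het against 0.0994 ± 0.048 FPKM in WT. These genes were chosen after their values had been seen.

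Lymphocyte markers were low in both groups, and most of them were lower by value in PKP2_het without passing the test. The T cell list (24 of 26 entries matched) summed to between 6.10 and 11.07 FPKM in PKP2_het and between 7.67 and 11.8 FPKM in WT, 78.7% of WT. Of its 3 genes tested by limma 0 were called. CD3D, a subunit of the T cell receptor complex, stood at 0.514, 0.402, 0.441 and 0.0484 FPKM in PKP2_het, against 0.785, 0.906, 0.692 and 1.23 FPKM in WT. The groups did not overlap, and the limma adjusted p with no level required was 0.174. The most abundant T cell genes overlapped: CD4 lay between 0.958 and 2.48 FPKM in PKP2_het and between 0.705 and 2.76 FPKM in WT, LAT between 0.746 and 2.66 FPKM in PKP2_het and between 1.07 and 1.38 FPKM in WT, and CD2 between 0.0719 and 1.11 FPKM in PKP2_het and between 0.967 and 1.39 FPKM in WT. Among the 23 T cell genes with at least 10 fragments, 17 were lower by value and 0 were called by limma voom, and 3, among them CD3D and CD3G, had PKP2_het libraries all below WT, against 4.16% of all genes. The median log2 difference of the 23 was -0.61, beside -0.01 for all genes tested that way.

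The B cell list (16 of 18 matched) summed to between 3.37 and 5.62 FPKM in PKP2_het and between 4.61 and 5.91 FPKM in WT, 87.1% of WT. EBF1, its most abundant gene but one that other cell types of heart also express, made up much of that sum, at 2.44 ± 0.51 FPKM in PKP2_het against 2.27 ± 0.18 FPKM in WT. TNFRSF13C, the BAFF receptor, averaged 0.493 ± 0.129 FPKM in PKP2_het against 0.569 ± 0.208 FPKM in WT. CD79A, the signalling partner of the B cell receptor, stood at 0.264, 0.252, 0.810 and 0.164 FPKM in PKP2_het, against 0.409, 1.37, 0.414 and 0.348 FPKM in WT. MS4A1 (CD20), which defines B cells, was at or below 0.124 FPKM in all 8 libraries. Of the 15 B cell genes with at least 10 fragments, 12 were lower by value and 0 were called by limma voom. The median log2 difference of the 15 was -0.78, beside -0.01 for all genes tested that way. CD22 and PAX5 had PKP2_het libraries all below WT, against 4.16% of all genes.

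The plasma cell list (10 of 11 matched) summed to between 46.9 and 59.0 FPKM in PKP2_het and between 49.3 and 56.8 FPKM in WT, 96.6% of WT, of which XBP1 and TXNDC5, expressed in many cell types, made up most. All 10 had at least 10 fragments, 5 were lower by value and 0 were called by limma voom. Their median log2 difference was 0.07, beside -0.01 for all genes tested that way. JCHAIN, which links IgA and IgM into polymers, stood at 2.64, 2.41, 2.53 and 2.89 FPKM in PKP2_het, against 3.45, 2.14, 2.56 and 3.47 FPKM in WT. The groups overlapped, and its log2 difference was -0.10 ± 0.13 (SE) with a limma adjusted p of 0.776. The part of lymphocyte and plasma cell content in the kappa V difference was not tested beyond these values, and without genomic sequence of these animals a different allele or a missing stretch of the kappa locus was not tested either.

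Among NK and cytotoxic cell genes (21 of 23 matched) 5 were tested by limma and 1 was called, GNLY, the granule protein NK-lysin. GNLY was called lower, beside 0.707% of all 10757 genes tested. It passed the level required for the test only through the WT libraries, so the share called among those tested carries no weight. The list summed to between 4.49 and 15.5 FPKM in PKP2_het and between 14.5 and 18.0 FPKM in WT, 53.4% of WT, and 14 of its 18 genes with at least 10 fragments were lower by value. By limma voom the median log2 difference of the 18 was -0.42, beside -0.01 for all genes tested that way. The part of this list in the receptor segment values was not tested. GNLY stood at 0.932, 0.550, 0.933 and 0.149 FPKM in PKP2_het, against 5.84, 7.29, 6.69 and 6.42 FPKM in WT. The groups were far apart, with a log2 difference of -2.23 ± 0.17 (SE) and a limma adjusted p of 0.000139. CTSW and NKG7, also carried by cytotoxic cells, averaged 1.41 ± 0.55 and 1.68 ± 0.71 FPKM in PKP2_het, against 2.25 ± 0.30 and 1.79 ± 0.28 FPKM in WT, with limma adjusted p of 0.240 and 0.854. GNLY lies 1.75 Mb beyond the kappa locus of chromosome 3, at 59067327-59072034. Within 5 Mb of that locus 60 genes were tested by limma and 1 was called, GNLY, or 1.67%, near the 1.86% over all genes tested. This window is wider than the 1 Mb used for the loci below and takes in GNLY, whose call is given above. Its share of called genes therefore carries no weight.

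**Figure D4:**
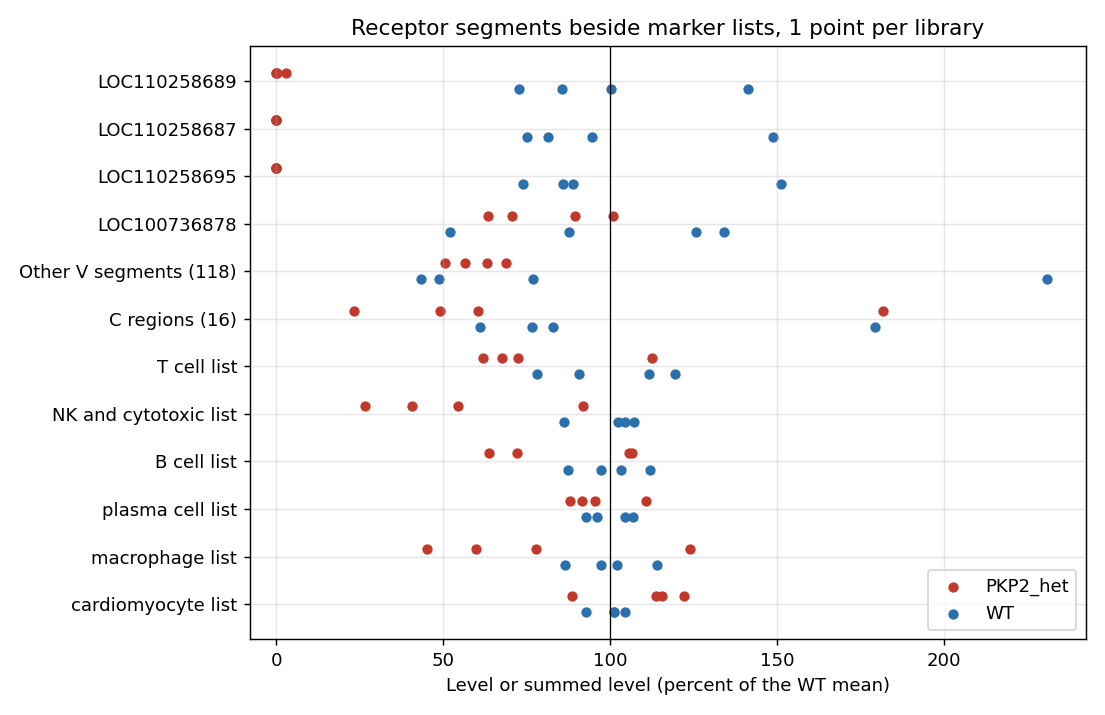
Levels of single genes and summed levels of gene sets in each library as percent of the WT mean (horizontal axis, the vertical line marks 100%), with PKP2_het above WT in each row. Points are libraries, 4 per group. LOC110258689, LOC110258687 and LOC110258695 lie at or near 0 in PKP2_het, whereas the groups overlap for LOC100736878, the other V segments, the C regions and the 6 marker lists plotted. The dendritic cell list and the neutrophil and mast cell list, whose sums did not overlap between the groups, are not plotted.

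Of the signalling proteins downstream of antigen receptors few passed the test. Of 30 genes 15 were tested by limma, 2 were called higher and 0 lower, with a median log2 difference of -0.12, beside -0.02 for all genes. Among them was MALT1, a paracaspase of NF-kappaB signalling, which stood at 9.20, 8.49, 9.47 and 10.7 FPKM in PKP2_het, against 3.02, 4.17, 4.37 and 2.43 FPKM in WT (log2 difference 1.24 ± 0.15 SE, limma adjusted p = 0.00373). The groups did not overlap. The call did not hold when libraries were rescaled to equal FPKM sums, where the limma adjusted p was 0.187. PTPRC (CD45), carried by all leukocytes, averaged 0.790 ± 0.274 FPKM in PKP2_het against 1.5 ± 0.26 FPKM in WT (limma adjusted p = 0.0986).

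The enzymes that join and switch receptor genes gave no call by limma among 6 tested of 13. RAG1, which cuts V, D and J segments, lay at or below 0.0693 FPKM in every library. PRKDC, the DNA-dependent protein kinase that repairs those cuts and other breaks, stood at 0.745, 1.35, 1.32 and 1.17 FPKM in PKP2_het, against 1.65, 2.89, 3.37 and 3.08 FPKM in WT. The groups did not overlap, with a limma adjusted p of 0.0503, and of 0.0323 by limma voom on genes with at least 10 fragments.

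Within 1 Mb of the 16 loci 123 other genes were tested by limma, 1 was called lower (LOC110258695, above) and 1 higher. That is 1.63%, near the 1.86% over all genes tested. LOC110258695 was the only gene tested beside the kappa pair. The others tested lay beside the loci of chromosomes 3, 7, 9, 14 and 18 or beside the heavy-chain C regions. The remaining loci on unplaced scaffolds had 0 genes tested, so the share does not describe them. The one called higher was MMP11, a matrix metalloprotease gene on chromosome 14 near the lambda locus, at 23.8 ± 7.47 FPKM in PKP2_het against 10.4 ± 1.67 FPKM in WT (SD, n = 4 each; log2 difference 1.08 ± 0.20 SE, limma adjusted p = 0.0270). That call was lost in 7 of 20 other settings, among them leaving out PKP2_het library 4 or WT library 1, 3 or 4 (limma adjusted p 0.0677 to 0.0976). Beside the kappa locus on chromosome 3, 19 genes were tested and 0 called, and beside the heavy-chain C regions 17 were tested and 0 called.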

How the data were processed

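The authors deposited 1 table of FPKM values per gene for 4 PKP2_het and 4 WT libraries. Per the labels' protocols, HISAT2 2.0.5 aligned the paired-end reads. No source used here names the counting program, annotation, scaling or strand, so antisense partners cannot be told apart. FPKM times gene length gave whole fragments (within 0.01) for 100% of 244400 values. The FPKM worth of 1 fragment in a 1 kb gene (0.0309 to 0.0458) did not follow the fragment totals, so a library factor other than the plain total was used. Coordinates of all 137 members equal those of RefSeq for Sscrofa11.1, and roles come from the closest protein the table names.

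Members, marker lists (164 entries matched, 8 unmatched, 1 ambiguous) and tests were chosen with earlier results of these data known. Differences (PKP2_het minus WT) were tested two-sided on log2(FPKM + 1) with limma (version 3.58.1, R 4.3.3, trended variance), for genes at 1 FPKM or more in 4 or more of 8 libraries. P-values were adjusted by Benjamini-Hochberg over all genes tested (threshold 0.05). An alternative chosen after seeing the data was limma voom with TMM scaling on genes with at least 10 fragments. The main limma fit was also run on simulated fragments, and the outcome is not reported here. Sums and ratios carry no test. Limits on a count of 0 (3 fragments over the group) cover counting error only. Genes named are all C regions, members tested or called, the highest member of the larger loci, called list genes and neighbours, the 3 most abundant genes of each lymphocyte list, and others picked after their values were seen. Some genes of the lists are not reported here by name.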

Additional observations from a re-analysis of the deposited data

Results flagged for a closer look

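In 8 of 40 groups of 4 libraries, over members with at least 10 fragments, PKP2 and LOC110258695, 1 library lay far from the other 3 by Dixon's test at the 95% level. The nominal rate of 1 in 20 assumes normal values and does not hold for levels from few fragments, so no excess can be read from this count. A group with the other 3 libraries at 0 is flagged whatever the level of the remaining library. Most of these levels rest on few fragments, and all were left in.

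Among kappa genes, LOC110258689 reached 0.582 FPKM in PKP2_het library 1, against 0 to 0.0619 FPKM in the group's other libraries, and LOC110258705 reached 0.272 FPKM in the same library, against 0 in the others. LOC110258705 stood at 1.84 FPKM in WT library 3, against 0 to 0.128 FPKM in the other WT libraries, and LOC110258692 at 0.227 FPKM in WT library 3, against 0 in the others. These 3 segments lie on the same unplaced scaffold.

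Among C regions, LOC110255503 (T cell receptor gamma) stood at 0.235 FPKM in PKP2_het library 3, against 0.0664 to 0.0919 FPKM in the group's other libraries. LOC102167789 (T cell receptor beta) stood at 0.408 FPKM in WT library 4, against 0.145 to 0.172 FPKM in the other WT libraries. LOC110258349 (gamma heavy chain) stood at 0.560 FPKM in WT library 4, against 0 to 0.0563 FPKM, and LOC110255225 (gamma heavy chain) at 0.743 FPKM in WT library 1, against 0 to 0.0251 FPKM.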

How the results depend on the processing

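The calls on members did not change in the settings run: 2 were lower and 0 higher by limma under every alternative, and LOC110258689, LOC110258687, LOC110258695 and GNLY stayed past the threshold in all 20. The highest adjusted p was 0.00252 for LOC110258689 and 0.00310 for LOC110258687, with log2 differences from -7.76 to -4.04 and from -6.56 to -2.12. LOC100736878 stayed short of the threshold in all 20 (adjusted p 0.413 to 0.949).

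Counts over all genes moved, and the cause was not tested. Of 124 higher and 76 lower, limma called 50 and 45 with libraries rescaled to equal FPKM sums (which moved the median log2 difference of all genes by -0.21), 367 and 292 with library quality weights, 196 and 115 with voom on genes with at least 10 fragments, and 75 to 195 and 40 to 119 without 1 library each, the highest without PKP2_het library 3. The lymphocyte lists had 1 gene lower, 3 with quality weights, and 1 to 2 without 1 library, 2 being without PKP2_het library 3. Signalling calls (2) numbered 0 with equal sums and 1 to 3 without 1 library. Neighbouring genes called (2) numbered 1 with equal sums, 7 with quality weights and 1 to 3 without 1 library. As shares of library fragments in place of FPKM, the PKP2_het mean as percent of WT was 11% for the kappa V sum and 13.2% for all V segments. PKP2 was 59.3% to 70.7% of WT without 1 library each (exact permutation p = 0.0571, the smallest that 35 relabellings allow).

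Deviations of same-numbered libraries correlated at -0.39, 0.03, -0.23 and 0.20 for numbers 1 to 4. Only number 4 was above 0.1, and only its libraries matched their own number best, so the numbers were not taken to pair the samples. With the replicate block, 66 genes were higher, 39 lower, and 1 neighbouring gene was called.

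Depth limits most members: 86 of 137 had no fragment, so a difference there was not detectable.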

Other observations

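Other immune cell lists, chosen beside the receptor genes, gave no call by limma. The 13 macrophage genes, 9 of them tested, summed to 76.7% of WT, and their complement genes C1QA, C1QB and C1QC were highest in PKP2_het library 2 and lowest in PKP2_het library 4 among the PKP2_het libraries. The 11 dendritic cell genes, 3 of them tested, summed to between 5.77 and 8.98 FPKM in PKP2_het and between 10.2 and 14.4 FPKM in WT, without overlap. The 11 neutrophil and mast cell genes, none of which reached the level required, summed to between 1.18 and 2.84 FPKM in PKP2_het and between 2.94 and 5.15 FPKM in WT, also without overlap. Of them, 1 was listed at 0 in all libraries. With no level required, limma called 1 of these 11 lower, S100A12, a neutrophil calcium-binding protein, named after its values were seen. It had 0 FPKM in every PKP2_het library, against 0.380, 0.271, 0.171 and 0.369 FPKM in WT (limma adjusted p = 0.0160, and 0.101 by limma voom). Erythroid genes (5 of 6 matched, 2 tested, 0 called), mostly HBB, summed to between 92.4 and 436 FPKM in PKP2_het and between 52.4 and 515 FPKM in WT. Cardiomyocyte genes (10 of 11 matched, 9 tested, 0 called) summed to 110% of WT.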
